A study of Homo sapiens with 27 samples.

Results

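In A549 cells treated with cisplatin, 3 libraries of RNA from heavy polysomes were set against 3 libraries of RNA from the cytosol. A549 is an established line of lung adenocarcinoma, and cisplatin is a platinum compound that crosslinks DNA. The members were the 21447 positions of RNA 3′ ends listed in all 6 libraries, out of 151954 positions after peaks that overlapped on a strand had been merged. The study holds 27 libraries of 3′-seq, an assay that reads RNA next to its poly(A) tail, and its title asks about short transcripts of long genes that are poorly translated after cisplatin. The groups used here, of 3 libraries each, were A549 polysomes with cisplatin, A549 cytosol with cisplatin, A549 polysomes with the vehicle DMSO and A549 cytosol with DMSO. Cisplatin was given at 100 µM. No time of exposure and no separate cultures are given in the sources used here, so p-values measure the spread between these libraries, which may be technical. The fractions are named only as cytosol and heavy polysomes, and the libraries of each carry different title series, so fraction and preparation cannot be told apart.

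A messenger RNA being read by several ribosomes at once sediments as a polysome, and the heavy polysomes hold the RNAs that carry many ribosomes. Cytosolic RNA holds these and also RNAs with few ribosomes or none, so a 3′ end higher in polysomes than in cytosol belongs to an RNA with a larger than average part of its molecules in the heavy fraction. RNAs of the mitochondrial genome are made and translated inside mitochondria, by ribosomes of their own. A gene with several poly(A) sites makes transcripts with different 3′ ends, and an end within an intron gives a truncated transcript.

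The files do not pair positions with gene names, and no annotation or genome of their build was used. Each position is therefore named by chromosome, start, end and strand, counted from 1, on the human build hg19. The mouse build mm9 stands in the submitters' notes, yet the highest position on chromosome 1 in these libraries, 249233248, fits hg19. Whether a position lies in an intron, a last exon or a repeat is not stated here, and neither the markers of A549 cells nor any gene list was checked.

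The libraries held 5204042 to 11687036 listed counts in polysomes and 3739215 to 5484796 in cytosol. The polysome lists numbered 1 and 2 are longer than the others, with 87617 and 122127 merged positions against 35251 to 45979 in the other 4 lists. The tested positions held 50.5% and 56.4% of the counts of these long lists and 90.8% to 94.0% of the counts of the others. Absence from a short list does not mean that no reads were found, so only positions listed in all 6 libraries were compared. Levels are given in CPM, a read count scaled to the library total over the tested positions after adjustment of that total by TMM, the scaling used in the edgeR tests. CPM values are therefore not plain shares of the counts in tested positions.

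Of the 21447 positions, 3888 were higher in polysomes (18.1%) and 3996 were lower (18.6%), which together are 36.8% of those tested (edgeR quasi-likelihood test, Benjamini-Hochberg adjusted p under 0.05). The median log2 difference was -0.00, and the middle 50% of positions lay between -0.69 and 0.71. The scaling sets that median near 0, so each difference is relative to the average RNA of the tested positions. The groups did not overlap at 3771 of the positions called higher (17.6% of all tested) and at 3904 of those called lower (18.2%). Changes of at least 2-fold were of like number, with 3063 higher and 3107 lower. Changes of at least 4-fold were more often decreases, with 90 higher and 392 lower, and changes of at least 8-fold numbered 11 and 43. When all listed counts served as library size, 807 positions were called higher and 2888 lower, so that 21.8% of calls were increases against 49.3% in the main test, and the median moved to -0.27. Without polysome library 2 the count of calls was 5084, and without cytosol library 2 it was 4788. With polysome library 3 as the only polysome library, which leaves the short lists alone, 4117 positions were called. Of the 7884 positions called in the main test, 7877 had the same sign in that comparison. Its libraries are all part of the main test, where groups rarely overlapped at called positions. The signs were thus largely fixed in advance and are no separate check.

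**Figure D1:**
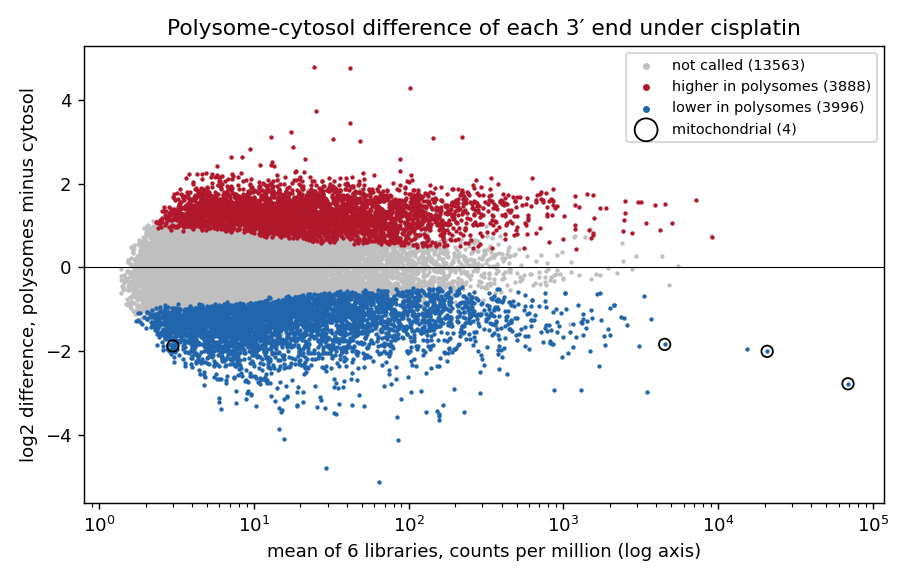
Each point is 1 of the 21447 tested 3′-end positions, with its mean level over the 6 libraries in CPM (log axis) and its log2 difference between polysomes and cytosol under cisplatin. Red points (3888) were called higher in polysomes, blue points (3996) lower, grey points were not called, and the 4 circled mitochondrial positions all lie below 0.

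Well covered positions were called more often in both directions. Positions were split by mean level into 5 classes of nearly equal size. In the lowest, up to 4.14 CPM, 4.55% of positions were higher and 10.7% were lower. In the highest, from 35.6 CPM, 31.3% were higher and 29.5% lower. Position width also went with the calls. Among 470 positions under 50 bases wide, 10.0% were higher and 21.3% lower, and among 2044 positions of 500 bases or more, 28.8% were higher and 22.8% lower. The median log2 difference varied little by chromosome, from -0.11 to 0.10 over 23 nuclear chromosomes, counting X and leaving out Y. The shares of positions called varied more. The share of positions called higher was lowest on chromosome 13 (11.1% of 360) and highest on chromosome 11 (22.8% of 1164). The share called lower ran from 14.7% of 924 on chromosome 10 to 22.9% of 1177 on chromosome 19.

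The mitochondrial genome showed the largest loss by amount. Its positions held 2.03%, 2.14% and 4.85% of counts in polysome libraries 1, 2 and 3. In cytosol libraries 1, 2 and 3 they held 14.8%, 12.3% and 17.7%. Every polysome library lay below every cytosol library, and library 3 had the highest share within each fraction. The means were 3.01 ± 1.60% and 14.9 ± 2.66% (SD, n = 3 each), a 4.97-fold lower share in polysomes (two-sided exact permutation p = 0.1, the smallest that 3 against 3 libraries allow). In DMSO the shares were 1.88%, 1.97% and 4.86% in polysomes against 11.1%, 10.1% and 16.1% in cytosol, so the fractions did not overlap there either (two-sided exact permutation p = 0.1). Without polysome library 3 the share under cisplatin was 7.16-fold lower.

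**Figure D2:**
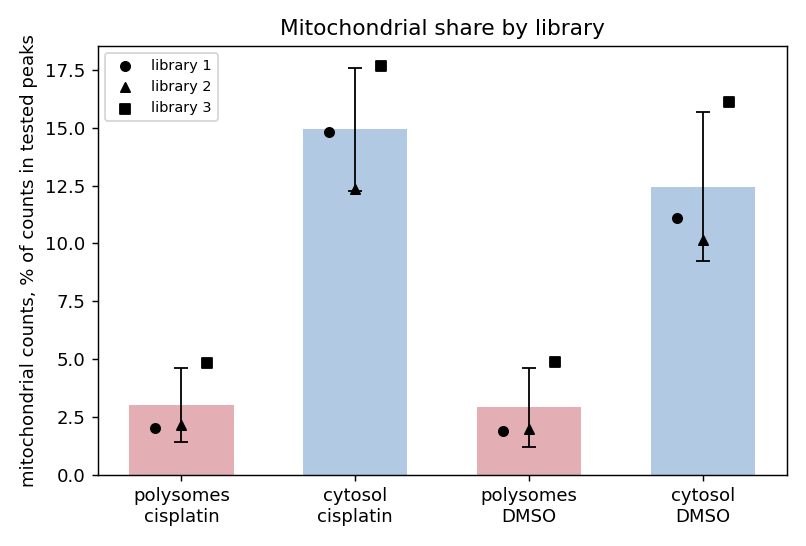
Bars give the mean share of mitochondrial counts, in percent of counts in tested positions, of 3 libraries per group with the SD as error bar, and symbols mark libraries 1 to 3. Polysome libraries lie between 1.88% and 4.86% and cytosol libraries between 10.1% and 17.7%.

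All 4 tested mitochondrial positions were lower in polysomes, where 18.6% of all positions were. The peaks of the plus strand merged into a single stretch from 1 to 16571, which had 13341, 13866 and 25607 CPM in the polysome libraries and 119710, 105390 and 136770 CPM in the cytosol libraries. It is the most abundant of the tested positions, and its groups lie far apart (log2 difference -2.78 ± 0.27 SE, edgeR adjusted p = 0.000264). The minus strand from 1 to 462 had 4667, 4866 and 15342 CPM in polysomes against 27893, 20155 and 51619 CPM in cytosol (log2 -2.0 ± 0.48). The groups did not overlap there, and library 3 was highest in both. The minus strand from 2851 to 16571 fell by a like amount, from 5195, 5200 and 10789 CPM in cytosol to 1359, 1210 and 3361 CPM in polysomes (log2 -1.84 ± 0.41). The minus-strand position from 754 to 1047 was near the listing limit, with 0.847 to 2.13 CPM in polysomes and 3.37 to 5.30 CPM in cytosol (log2 -1.87 ± 0.41). With the short lists alone, the plus-strand position remained called and the minus-strand positions from 1 to 462 (log2 -1.07, adjusted p = 0.149, edgeR) and from 2851 to 16571 (log2 -1.02, adjusted p = 0.127, edgeR) did not.

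Among positions on nuclear chromosomes, the steepest loss from polysomes was at chromosome 22, 40271602 to 40272434, plus strand. It had 4.27, 3.81 and 2.62 CPM in the polysome libraries and 109, 134 and 130 CPM in the cytosol libraries (log2 -5.13 ± 0.26 SE, edgeR adjusted p = 4.19e-05). All cytosol libraries were high and all polysome libraries were at a few CPM. The position at chromosome 13, 39770875 to 39770896, minus strand, is only 22 bases wide and had 2.13, 0.988 and 3.18 CPM in polysomes against 59.3, 46.6 and 64.3 CPM in cytosol (log2 -4.78 ± 0.38). At chromosome 20, 55933897 to 55934314, minus strand, 8.54, 5.51 and 13.6 CPM stood against 164, 140 and 179 CPM (log2 -4.13 ± 0.32). Only positions whose groups did not overlap were ranked among the steepest losses and gains, so the separation is a condition of the choice. At least 1 library's listed stretch covered only 24.6% of the merged position on chromosome 22 and 26.1% of that on chromosome 20, with up to 2 separate peaks of 1 library in each. At chromosome 1, 186065555 to 186065574, plus strand, 20 bases wide, 1.52, 0.988 and 2.62 CPM stood against 26.1, 24.8 and 37.8 CPM (log2 -4.11 ± 0.39). The 10 steepest losses among positions without overlap and with at least 20 CPM in cytosol had log2 differences from -5.13 to -3.50. Their adjusted p ran from 4.19e-05 to 0.000409 (edgeR). Whether reads at these positions also match the mitochondrial genome was not tested.

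At the 2 steepest gains, 1 polysome library stood apart from the other 2. At chromosome 1, 211744909 to 211745705, minus strand, the polysome libraries had 60.4, 77.9 and 4.48 CPM and the cytosol libraries 1.40, 1.48 and 2.30 CPM (log2 4.79 ± 0.91 SE, edgeR adjusted p = 0.00337). The 2 high values are those of the long lists, and polysome library 3 lay close to cytosol. At chromosome X, 149399039 to 149399677, minus strand, the polysome values were 117, 118 and 5.42 CPM and the cytosol values 2.25, 2.97 and 3.61 CPM (log2 4.76 ± 0.94). At least 1 library's listed stretch covered only 6.65% and 8.61% of these merged positions, and with the short lists alone their log2 differences were 1.45 (adjusted p = 0.0443, edgeR) and 0.94 (adjusted p = 0.153, edgeR).

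At the next 3 gains polysome library 3, of a short list, lay between the long-list polysome libraries 1 and 2. At chromosome 9, 131095295 to 131095316, plus strand, 22 bases wide, the polysome libraries had 59.1, 28.1 and 53.6 CPM and the cytosol libraries 3.37, 2.12 and 5.25 CPM (log2 3.74 ± 0.40, edgeR adjusted p = 0.000333). The short-list library 3 was as high as the long-list libraries. At chromosome 2, 8890334 to 8890356, plus strand, 23 bases wide, 37.2, 27.4 and 29.3 CPM stood against 3.09, 1.91 and 5.25 CPM (log2 3.23 ± 0.36). At chromosome 2, 88870440 to 88870518, minus strand, 29.3, 16.4 and 23.3 CPM stood against 1.97, 1.91 and 4.27 CPM (log2 3.11 ± 0.40), and at least 1 library's listed stretch covered only 25.3% of this position. At the gain of rank 6, chromosome 6, 85998674 to 85998808, plus strand, polysome library 3 was again far below the others. The polysome libraries had 356, 344 and 76.4 CPM there and the cytosol libraries 37.9, 38.6 and 14.1 CPM. Polysome library 3 was the lowest polysome library at 5 of the 10 steepest gains and at 1 of the 10 steepest losses. Of the 10 steepest gains, 5 were at most 27 bases wide, and of the 10 steepest losses 3 were. Positions of that width made up 214 of the 21447, of which 34 were higher and 47 lower.

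**Figure D3:**
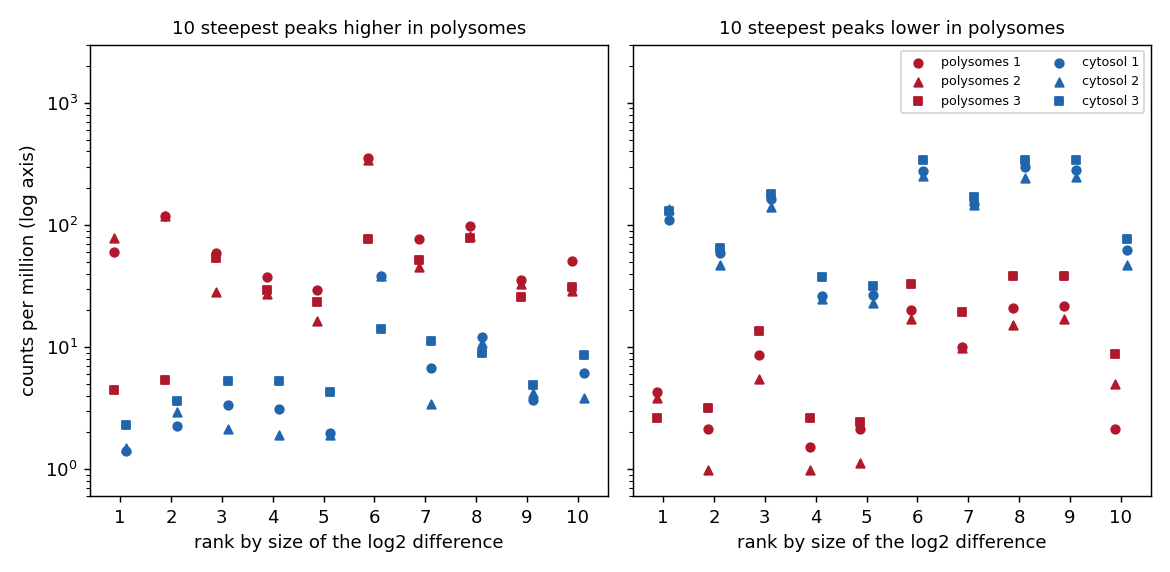
Levels in CPM (log axis) in each of the 6 libraries at the 10 positions with the steepest gain in polysomes (left) and the 10 with the steepest loss (right), ordered by the size of the log2 difference; red symbols are polysome and blue symbols cytosol libraries 1 to 3. In the first 2 gains polysome library 3, at 4.48 and 5.42 CPM, lies near the cytosol libraries. Only positions whose groups did not overlap were ranked.

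Among abundant positions on nuclear chromosomes, differences were smaller than at the steepest ones, and the spread between libraries varied from position to position. The largest of the 10 most abundant losses was at chromosome 17, 22023939 to 22024064, plus strand (log2 -2.98 ± 0.26 SE, edgeR adjusted p = 0.000232). The polysome libraries there had 719, 560 and 1078 CPM and the cytosol libraries 6316, 5077 and 7159 CPM. At least 1 library's listed stretch covered only 42.9% of it. Whether reads at this position also match the mitochondrial genome was not tested. At chromosome 19, 49469528 to 49470235, plus strand, the polysome libraries had 7322, 6386 and 5210 CPM and the cytosol libraries 23706, 29216 and 20250 CPM (log2 -1.95 ± 0.20 SE, edgeR adjusted p = 0.000281). At chromosome 1, 8921035 to 8921492, minus strand, the polysome libraries had 7043, 6946 and 6299 CPM and the cytosol libraries 2241, 2501 and 2340 CPM (log2 1.52 ± 0.15, edgeR adjusted p = 0.000259). Its polysome mean of 6763 ± 404 CPM (SD, n = 3) is well outside the cytosol mean of 2361 ± 131 CPM. At chromosome 14, 102551022 to 102551368, minus strand, 6491, 4788 and 9244 CPM stood against 2863, 3246 and 3717 CPM (log2 1.06 ± 0.23). With all listed counts as library size its log2 difference was 0.93 (adjusted p = 0.124, edgeR).

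Of the 10 most abundant positions called higher, the groups overlapped at 2, on chromosomes 12 and 17. At chromosome 12, 53346504 to 53346708, plus strand, the polysome libraries had 15927, 13558 and 3045 CPM and the cytosol libraries 4814, 4071 and 1728 CPM (log2 1.62 ± 0.53, edgeR adjusted p = 0.038). Library 3 was lowest in both fractions, and polysome library 3 lay within the range of cytosol. Between libraries of the same number, polysomes were higher in 3 of 3, and with the replicate number as a block the log2 difference was 1.43 (adjusted p = 1.86e-08, edgeR). With the short lists alone, which set polysome library 3 against all 3 cytosol libraries, it turned to -0.16 (adjusted p = 0.824, edgeR). At chromosome 17, 19641250 to 19641777, minus strand, 5976, 5469 and 2360 CPM stood against 2502, 2756 and 1374 CPM (log2 1.06 ± 0.35, edgeR adjusted p = 0.0369), again with library 3 lowest in both fractions. With the replicate number as a block its log2 difference was 1.01 (adjusted p = 5.07e-07, edgeR), and with the short lists alone it was 0.15 (adjusted p = 0.787, edgeR). Leaving out any library other than polysome library 3 ended both calls, with adjusted p from 0.0552 to 0.129 on chromosome 12 and from 0.0616 to 0.117 on chromosome 17 (edgeR).

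At chromosome 12, 6647266 to 6647551, plus strand, the most abundant position called higher, 13168, 12843 and 8439 CPM stood against 6787, 7361 and 6515 CPM (log2 0.74 ± 0.19, edgeR adjusted p = 0.0141). The groups did not overlap there. Its adjusted p was 0.0526 without polysome library 2 and 0.0511 without cytosol library 2 (edgeR). Its log2 difference was 0.35 with the short lists alone (adjusted p = 0.291, edgeR) and 0.41 with all listed counts as library size (adjusted p = 0.411, edgeR).

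To ask whether shorter transcripts take a different part in polysomes, each position was compared with the nearest stronger position within 50 kb downstream on its strand, using the counts of both in each library. This cancels differences in depth and scaling between libraries. Some pairs may span 2 genes. Of 9102 such pairs, the weaker upstream end was higher against its neighbour in polysomes in 430 (4.72%) and lower in 458 (5.03%), together 9.76% (edgeR, adjusted p under 0.05). With replicate number as a block the counts were 589 and 701. Without cytosol library 1 the count of lower pairs was 300, and without cytosol library 2 it was 293. In 7150 mirror pairs, with the weaker end downstream, 369 were higher (5.16%) and 538 lower (7.52%), together 12.7%.

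Over all distances the calls of upstream pairs were near balance, but these pairs as a whole were not centred on 0. The median log2 difference of the upstream end against its stronger neighbour was -0.21, and 66.0% of pairs were below 0. In mirror pairs the median was 0.03 and 48.2% were below 0. The upstream end took a median 22.6%, 22.9% and 23.1% of the pair's counts in polysome libraries 1, 2 and 3. In cytosol libraries 1, 2 and 3 it took between 24.4% and 25.4%. The fractions did not overlap, and the long and short polysome lists gave nearly equal values. The median difference was -0.17 for 799 pairs up to 500 bases apart, -0.24 for 2847 pairs from 1000 to 5000 bases apart and -0.18 for 1813 pairs over 20000 bases apart. Pairs share positions and libraries, so these medians are given as a description. Among 3227 pairs whose positions every list covered by at least 50%, the median was -0.21.

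**Figure D4:**
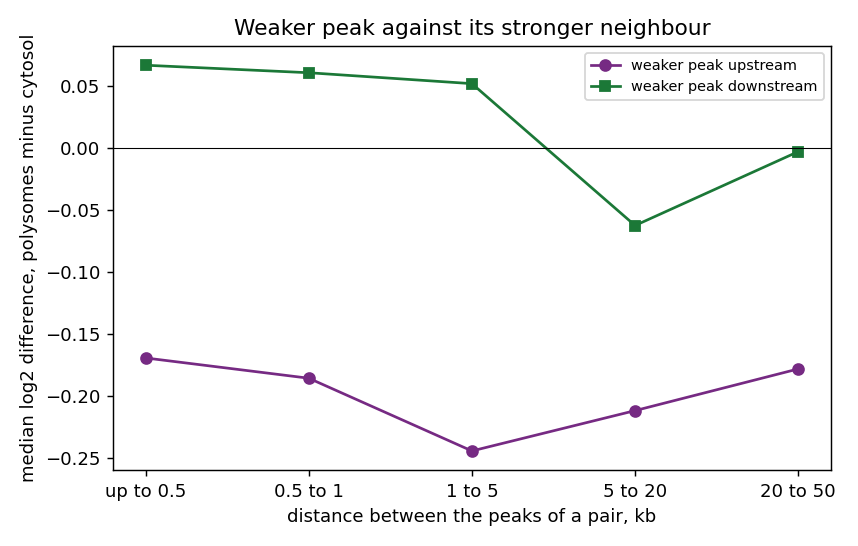
Median log2 difference between polysomes and cytosol of the weaker position of a pair against its stronger neighbour, by the distance between them in kb; circles are pairs with the weaker position upstream, squares pairs with it downstream. Medians of upstream positions run from -0.24 to -0.17 at every distance, and those of downstream positions from -0.06 to 0.07.

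Calls came mostly from distant pairs. Of upstream pairs up to 500 bases apart, 0 were called higher and 7 lower. From 500 to 1000 bases apart, 1 of 1309 was higher and 13 were lower, so the few calls of close pairs were mostly decreases. Over 20000 bases apart, 222 of 1813 were higher and 240 lower. Where both positions of a pair were themselves called against all RNA, they moved the same way in 1982 of 2185 pairs (90.7%). Up to 1000 bases apart this held for 518 of 518 pairs, and over 20000 bases apart for 244 of 356 (68.5%).

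Among called pairs of at least 10 CPM whose positions every list covered by at least 50%, the largest shift was on chromosome 9, plus strand. There the end at 131095295 to 131095316 took 49.1%, 34.5% and 52.5% of the counts of the pair in polysomes and 4.84%, 2.78% and 5.82% in cytosol, against the end at 131096140 to 131096355, 1039 bases further (log2 4.17 ± 0.37 SE, edgeR adjusted p = 1.69e-05). The downstream end itself was not called (log2 -0.47, adjusted p = 0.0869, edgeR). On chromosome 19, plus strand, the end at 5668220 to 5668491 took 9.37%, 10.5% and 8.74% in polysomes and 0.655%, 0.871% and 0.573% in cytosol, against the end at 5691520 to 5691962 (log2 3.90 ± 0.24). In the other direction, on chromosome 1, plus strand, the end at 41467011 to 41467032 took 14.9%, 9.42% and 14.0% in polysomes and 64.0%, 71.6% and 78.0% in cytosol, against the end at 41474456 to 41474566 (log2 -4.09 ± 0.37). In each of these 3 pairs every polysome library lay on the same side of every cytosol library.

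The polysome-cytosol difference under cisplatin was then set against that in DMSO, over 17833 positions listed in all 12 A549 libraries of both treatments. Fitted together, 7698 positions (43.2%) differed between polysomes and cytosol under cisplatin and 7070 (39.6%) in DMSO (edgeR, adjusted p under 0.05). A test of the difference between the treatments called 0 positions (edgeR interaction, 0% at an adjusted p under 0.05), and 217 (1.22%) had an unadjusted p under 0.05. That share is below the 0.05 that evenly spread p-values give where nothing differs. The p-values here are thus not evenly spread, and the 217 cannot be judged as a surplus or as none. With replicate number as a block, 0 were called and 388 had an unadjusted p under 0.05 (edgeR). DESeq2 also called 0, with 130 at an unadjusted p under 0.05. The median 95% interval of the difference between treatments was ± 0.94 on the log2 scale, and it was narrower than ± 1 at 57.4% of positions. With intervals of this width, the count of 0 does not show that the fractions differ alike in both treatments.

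**Figure D5:**
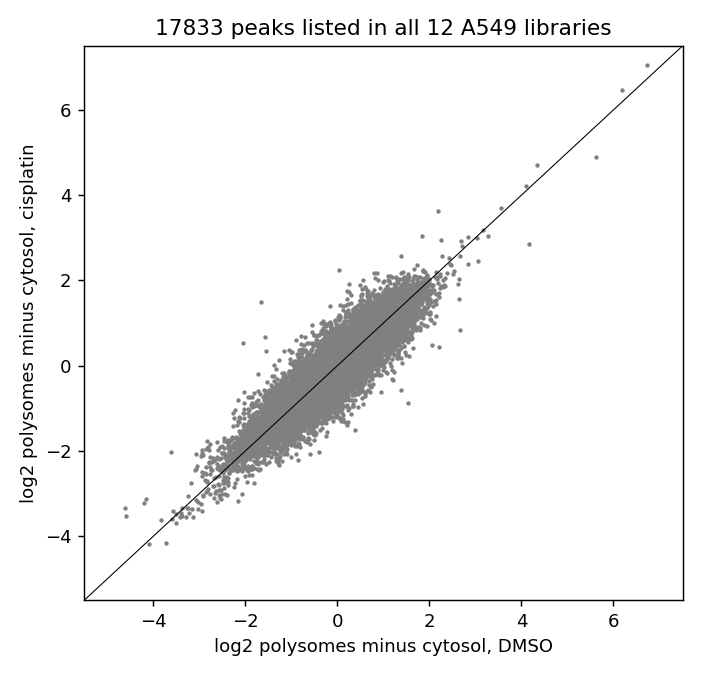
Log2 difference between polysomes and cytosol in DMSO (x axis) and under cisplatin (y axis) for 17833 positions, with the line of equal values. The positions lie along the line in both directions.

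At chromosome 1, 8921035 to 8921492, the log2 difference was 1.43 in DMSO and the treatments differed by 0.03 ± 0.43 (95% interval). At the mitochondrial plus strand it was -2.69 in DMSO, and the treatments differed by -0.14 ± 0.84. Of the 3 mitochondrial positions listed in all 12 libraries, this was the 1 called in DMSO. The minus strand had log2 differences in DMSO of -1.56 from 1 to 462 (adjusted p = 0.0659, edgeR) and -1.32 from 2851 to 16571 (adjusted p = 0.0732, edgeR). At chromosome 20, 55933897 to 55934314, it was -4.10 in DMSO, and the treatments differed by -0.08 ± 0.87. Of the 10 steepest gains under cisplatin, 9 were listed in all 12 libraries. All 9 of these were called in DMSO, with log2 differences of 2.25 to 4.34. The 4.34 was at chromosome X, 149399039 to 149399677. There the DMSO polysome libraries had 117, 127 and 3.31 CPM and the DMSO cytosol libraries 4.24, 2.91 and 5.27 CPM. The groups overlapped, with polysome library 3 again near cytosol. Of the 10 steepest losses, 7 were listed in all 12 and all 7 were called, from -4.10 to -3.28. Having been chosen for their size under cisplatin, these positions are given side by side only.

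The position with the smallest p for the treatments was at chromosome 7, 23214627 to 23215044, plus strand. Under cisplatin it had 12.2, 16.7 and 24.6 CPM in polysomes and 5.25, 4.13 and 4.83 CPM in cytosol. In DMSO it had between 4.6 and 5.97 CPM in polysomes and between 3.86 and 4.58 CPM in cytosol. Polysomes under cisplatin stood above the other 3 groups, but the difference between treatments did not pass (log2 1.66, 95% interval 0.74 to 2.59, edgeR adjusted p = 1.0). The smallest p in the other direction was at chromosome 19, 47261406 to 47261857, plus strand (log2 -1.61, 95% interval -2.63 to -0.60, edgeR adjusted p = 1.0). The upstream pairs had like medians in both treatments: over 6887 pairs listed in all 12 libraries, the median log2 difference was -0.21 under cisplatin and -0.18 in DMSO, and over 5527 mirror pairs it was 0.04 and 0.03.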

How the data were processed

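RNA 3′ ends were measured in 6 A549 libraries under cisplatin, with 6 DMSO libraries for comparison. The authors deposited whole-number read counts per peak and library without normalization, the smallest being 5 in the lists used. Tools named in the submitters' processing notes were bedtools 2.17.0, SAMtools 1.1 and Bowtie2 2.2.5, with no role given; how peaks were called and filtered is not stated in these sources.

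Peaks overlapping by at least 1 base on a strand were merged over the libraries, and positions listed in all were tested with edgeR 4.0.16 (quasi-likelihood, TMM scaling, R 4.3.3) and Benjamini-Hochberg adjustment at 0.05. Pairs had a term per library. The mitochondrial share was compared by an exact permutation test (SciPy 1.17.1). The tests were tested on simulated data, where those of pairs and of the treatment difference missed most 4-fold changes made in a small set of positions. Alternatives used DESeq2 1.42.0, limma 3.58.1 and other filters, scalings and library sets. Same-numbered polysome and cytosol libraries deviated together (correlations 0.28, 0.18 and 0.58). Library 2 of the polysomes correlated more with a cytosol library of another number (0.42), and the labels state no pairing. The main tests did not pair libraries by number. Only the alternatives with a replicate block or sign flips took same-numbered libraries as pairs.

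Named positions were the 10 largest differences per direction without overlap and with at least 20 CPM in the higher group, the 10 most abundant called, mitochondrial positions, the 5 largest pair shifts of at least 10 CPM and the 5 smallest interaction p-values, of which the leading ones are printed. Members, lists and rules were chosen with earlier results of these data known. Planned gene lists and cell markers were not used, as no annotation of the build was used.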

Additional observations from a re-analysis of the deposited data

How the results depend on the processing

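Of the 7884 positions called between polysomes and cytosol, all kept their sign under each alternative in which they were tested except the short lists alone, where 7 turned. The alternatives reuse the same counts, so the kept signs are no separate evidence. The count of calls was 1203 (623 higher, 580 lower) over all merged positions with a mean count of at least 5, where unlisted positions count as 0 and the median log2 difference was 1.38. It was 3695 (807 higher) with all listed counts as library size. Settings chosen after seeing the data gave 4713 calls (2369 higher, 2344 lower) over positions that every list covered by at least 50% and 4117 (2411 higher, 1706 lower) with the short lists alone, where the lone polysome library is assumed to vary like the others. Leaving out 1 library gave 4788 to 8933 calls, 2284 to 4413 higher and 2406 to 4520 lower. Upstream pairs gave 404 calls (208 higher, 196 lower) within 20 kb and 173 (85 higher, 88 lower) within 10 kb, where fewer pairs are tested. They gave 355 (165 higher, 190 lower) over covered pairs and 581 (286 higher, 295 lower) with a weaker end of at least 10 CPM, both chosen after seeing the data. Leaving out 1 library gave 311 to 503 higher and 293 to 525 lower pairs. The replicate block gave 11109 calls of positions, 701 lower pairs and 0 calls between treatments. For the mitochondrial share, an exact sign-flip permutation test over the 3 library pairs gave p = 0.25, the smallest that 3 pairs allow. Between treatments, 1 position was called (1 lower) over all merged positions with a mean count of at least 5, and 0 in the other alternatives run. The mitochondrial share differed by -13.2 to -10.6 percentage points when 1 library was left out. The position at chromosome 12, 53346504 to 53346708, turned to -0.16 with the short lists alone; the cause was not tested. Depth limits positions of a few CPM, where fewer were called.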

Other observations

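Positions listed on 1 side only were not among those compared. A total of 1329 merged positions stood in all 3 polysome lists and in no cytosol list, with a median highest count of 13, and 1570 stood in all 3 cytosol lists and in no polysome list, with a median highest count of 15. Polysome lists 1 and 2 shared 46281 positions that none of the other 4 lists held, which took 2749433 and 4186738 of their counts. An unlisted position is not a count of 0, so no difference is given for any of these.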
